A study of Mus musculus with 6 samples.

Results

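Mag, Mog, Cldn11, Ermn, Mal and Opalin are 6 genes whose products are built into the myelin sheath or support it. Every transcript that the deposited table assigned to 1 of these 6 gene names, and to no other gene, was taken, which gave 386 of 36659 transcripts and 6 of 6357 gene names. A further transcript was assigned to Mog together with the overlapping gene Zfp57 and was left out. The 386 transcripts were 46 of Mag, 108 of Mog, 100 of Cldn11, 45 of Ermn, 76 of Mal and 11 of Opalin. Summed over the cells, each of the 6 had fewer transcripts than Mobp (174) or Cnp (204), myelin genes used as a scale, of which 122 and 103 came from Oligo1 cell 1. Within the Oligo5 cells this order did not hold: Mobp had 15 and 13 transcripts there and Cnp 36 and 18, against 52 and 23 of Mal and 19 and 35 of Mog. In Oligo1 cell 2 Cldn11 had 35 transcripts, above Mobp (24) and below Cnp (47).

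The study sequenced amplified cDNA of 6 single cells from the brain of CD-1 mice with PacBio long reads. Reads that share a cell, a gene and a unique molecular identifier (UMI, a short random tag added before amplification) were counted as 1 transcript. A transcript thus stands for 1 molecule as far as UMIs were unique and read without error. Counts were not adjusted for length, while short molecules were discarded before sequencing and the second run was enriched for long ones. There were 2 Oligo1 cells (immature oligodendrocytes), 2 Oligo5 cells (mature myelinating oligodendrocytes) and 2 cells whose labels name oligodendrocyte progenitors. All 6 samples carry the label embryo as their stage and no treatment or genotype, and none names the animal, so a cell type counts as 1 sample and no test between cell types was made. The study's text calls the pair with the progenitor label vascular and leptomeningeal cells (VLMCs). In these 2 cells 7 and 9 of 10 VLMC marker genes were detected, with 96 and 240 transcripts, and the 4 oligodendrocytes had none. Of 10 markers of oligodendrocyte progenitors 1 was found in each of the 6 cells, with 5 and 3 transcripts in this pair. Of 10 oligodendrocyte markers the pair had 0 and 3, with 0 and 30 transcripts. Astrocyte markers had 6 and 23 transcripts in the pair, and endothelial markers 1 and 14. The pair is called the cells with the progenitor label below.

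Oligodendrocytes wrap axons with layers of their own membrane, and the sheath is held together by proteins with different places in it. MAG, of the Siglec family of sialic acid binding receptors, sits in the innermost layer next to the axon, MOG lies on the outermost surface, and claudin-11 forms the tight junctions between the layers. Ermin binds the actin cytoskeleton, MAL is a tetraspan protein of lipid rafts that takes part in sorting membrane to the sheath, and opalin is a small glycosylated membrane protein of oligodendrocytes. Mag is known for a long and a short form, which differ in the cytoplasmic end of the protein through 1 alternative exon; in rodents the long form is known to prevail in early myelination and the short form in the adult.

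The short stretches that the results turn on are shown first, from the GENCODE M21 transcripts (GRCm38) and in the direction of the transcript. The first pair shows how the forms of Mag differ. Exon 12 (chr7:30900352-30900396) holds the stop codon of the short form, in capitals, and without it exon 11 is joined to exon 13, whose first 15 bases are in capitals and where reading goes on to the stop codon of the long form at chr7:30899531-30899533.
Mag, part of exon 12, chr7:30900358-30900387, minus strand: gtctctacccgggattgtcacTGAgagccc
Mag, exon 11 joined to exon 13, minus strand: cctgataagtatgagAGTGAGAAGCAGCGC
The next 3 stretches are centred on 3′ ends that lay well before the end of the gene model, and capitals mark the bases that follow the last aligned base.
Mag, end in exon 10 and the bases that follow in exons 10 and 11, minus strand: catcacccagacgagAAGAAAAAAGAATGT
Ermn, end in the coding part of exon 3, chr2:58048074-58048103, minus strand: ctaagtgtgacgaggAAGAAGAAGAAGAAG
Mal, early end, chr2:127634859-127634888, minus strand: aaaagaaaacaagccAAAAAGAAAACAAAA
The last 4 are the 30 bases up to the most used 3′ end of a gene, with a polyadenylation hexamer (AATAAA or ATTAAA) in capitals where 1 was found.
Mal, end of the gene model, chr2:127633228-127633257, minus strand: atttttaatcATTAAAagaaactttcatac
Opalin, most used end, chr19:41063420-41063449, minus strand: ttaaaaaatAATAAAgctttgagagttggc
Cldn11, most used end, chr3:31164291-31164320, plus strand: aatctgtgcAATAAAataacaaactgtctc
Mog, most used end, chr17:37010744-37010773, minus strand: ctaattaataatacaagtttctctgtgcat

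Depth set what could be seen. The cells held 2338 to 11483 transcripts and 7610 to 20509 reads, and 24.0% to 52.1% of the reads of a cell came from the second run, which was enriched for long molecules. Where no transcript was found, the limit set by 3 counts was 0.128% of the transcripts in the first cell with the progenitor label, 0.0640% in the second, and 0.0261% to 0.0509% in the oligodendrocytes. No barcode was shared between cells, and 2 of 384 combinations of member gene and UMI occurred in 2 or more cells. Of the 386 transcripts 233 were read once, and 332 remained when UMIs of 1 gene and cell that differed by 1 substitution were merged. With UMIs a shift of 1 base apart merged as well, a step chosen after seeing the data, 298 remained. Markers of other cell types were seen in single oligodendrocytes: 5 of 10 neuronal markers with 37 transcripts in Oligo5 cell 2, where 1 of 8 astrocyte markers had 17 transcripts as well, and 5 of 8 endothelial markers with 11 transcripts in Oligo5 cell 1. In Oligo1 cell 1 and Oligo5 cell 1, 1 astrocyte marker had 3 and 4 transcripts. Their part in the results was not tested. All intervals below are exact 95% intervals that cover counting error only.

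The 6 genes were found in the oligodendrocytes and in neither cell with the progenitor label. Together they made up 1.12% of the transcripts in Oligo1 cell 1 (129 transcripts, 0.939% to 1.33%), 1.08% in Oligo1 cell 2 (65, 0.831% to 1.37%), 1.88% in Oligo5 cell 1 (111, 1.55% to 2.26%) and 1.30% in Oligo5 cell 2 (81, 1.04% to 1.62%). Both Oligo5 cells were above both Oligo1 cells, but the interval of Oligo5 cell 2 overlapped those of the Oligo1 cells. That order was lost in the short run, where Oligo1 cell 1 had 1.47% and Oligo5 cell 2 1.17%, and among UMIs with 2 or more reads, where they had 1.37% and 1.17%. Behind the sums stood different genes: Ermn and Mal took a larger share in both Oligo5 cells than in either Oligo1 cell, Mag, Cldn11 and Opalin a larger share in both Oligo1 cells, and Mog overlapped. Among all 492 genes with 10 or more transcripts over the 4 oligodendrocytes, both Oligo5 cells were above both Oligo1 cells for 15.2%, both Oligo1 cells above both Oligo5 cells for 34.6%, and 49.8% were separated in either direction, against 2, 3 and 5 of the 6 members. With 2 cells of each type such a separation is frequent, and these counts describe the 4 cells.

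Mal showed the widest separation. It had 1 transcript in Oligo1 cell 1, 0 in Oligo1 cell 2, 52 in Oligo5 cell 1 and 23 in Oligo5 cell 2. Its shares were 0.00871% (0.000220% to 0.0485%), 0% (up to 0.0496% at 3 counts), 0.882% (0.659% to 1.16%) and 0.370% (0.235% to 0.555%), and the intervals of the Oligo5 cells lay above those of the Oligo1 cells. In Oligo5 cell 1 Mal was the member with the most transcripts. Ermn had 10, 1, 17 and 17 transcripts in the same order of cells. Its shares were 0.0871%, 0.0165%, 0.288% and 0.274%, and the Oligo5 cells were close to each other, at intervals of 0.168% to 0.461% and 0.160% to 0.438%, and the second of these reached the upper bound of Oligo1 cell 1 (0.160%).

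Mag had 18 transcripts in Oligo1 cell 1, 21 in Oligo1 cell 2, 5 in Oligo5 cell 1 and 2 in Oligo5 cell 2. These were shares of 0.157% (0.0929% to 0.248%), 0.348% (0.215% to 0.531%), 0.0848% (0.0275% to 0.198%) and 0.0322% (0.00390% to 0.116%). The order of the cells separated the types, but the interval of Oligo1 cell 1 overlapped those of both Oligo5 cells. Cldn11 had 43, 35, 18 and 4 transcripts, or 0.374%, 0.579%, 0.305% and 0.0644%. The intervals of Oligo1 cell 1 (0.271% to 0.504%) and Oligo5 cell 1 (0.181% to 0.482%) overlapped widely. That of Oligo1 cell 2 (0.404% to 0.805%) overlapped the interval of Oligo5 cell 1 as well. Opalin, the rarest, had 5 and 6 transcripts in the Oligo1 cells (0.0435% and 0.0993%) and 0 in both Oligo5 cells, which allows up to 0.0509% and 0.0483% at 3 counts. Its absence from the Oligo5 cells was therefore not distinguishable at this depth from the level in Oligo1 cell 1.

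These 3 separations were not present among UMIs with 2 or more reads. There no member had both Oligo1 cells above both Oligo5 cells: Mag had 7, 1, 3 and 0 such transcripts, Cldn11 19, 4, 10 and 0, and Opalin 2, 0, 0 and 0, while Ermn (8, 1, 9 and 7) and Mal (1, 0, 36 and 6) kept both Oligo5 cells on top. Opalin was then below the minimum of 10 transcripts, which 5 members and 114 of all genes met, and of these genes 38.6% had both Oligo1 cells on top. In the long run by itself only Mag remained separated in that direction, on 9, 2, 2 and 0 transcripts. Its share was 0.135% in Oligo1 cell 2 and 0.115% in Oligo5 cell 1 there, each from 2 transcripts. Cldn11 was down to 1, 3, 1 and 0 transcripts.

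Mog differed between the cells of 1 type more than between types. It had 52 transcripts in Oligo1 cell 1, 2 in Oligo1 cell 2, 19 in Oligo5 cell 1 and 35 in Oligo5 cell 2. Its shares were 0.453% (0.338% to 0.593%), 0.0331% (0.00401% to 0.120%), 0.322% (0.194% to 0.503%) and 0.564% (0.393% to 0.783%). Oligo1 cell 2 stood far below the other 3 cells, whose intervals overlapped. Mobp and Cnp did not have this order: Oligo1 cell 2 was second highest for both, at 0.397% and 0.778%.

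**Figure D1:**
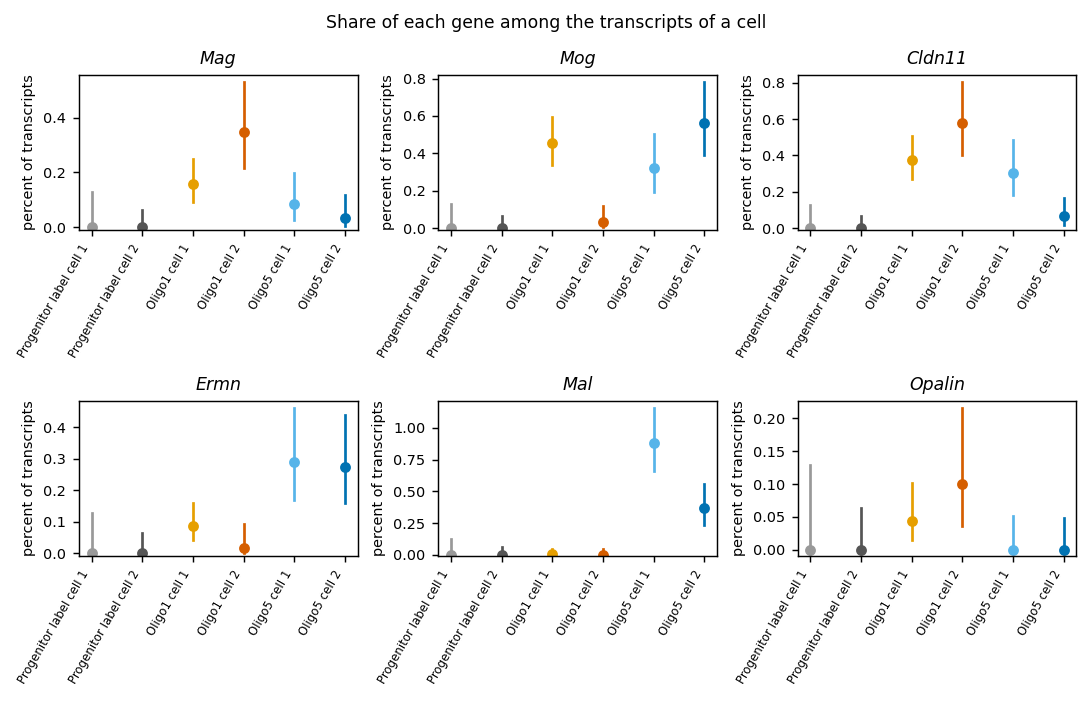
Share of each of the 6 genes among all transcripts of a cell (y axis, percent, a scale of its own for each gene) in the 6 cells (x axis); points are the shares and bars the exact 95% binomial intervals, or at 0 transcripts the limit of 3 counts, which cover counting error only. Mal and Ermn are highest in the Oligo5 cells, Mag, Cldn11 and Opalin in the Oligo1 cells, and Mog is low in Oligo1 cell 2 (2 transcripts) against 52 in Oligo1 cell 1.

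The profile of a gene over the 6 cells was compared with that of other genes by the part of the profiles that is shared, where 1 means the same division among cells and 0 no cell in common. Among 215 other genes with 20 or more transcripts, the sum of the 6 genes was like Vmp1 (0.952), Kif1b (0.940), Klhl2 (0.905) and Ugt8a (0.900), all among the nearest genes. Ugt8a encodes the enzyme that makes galactosylceramide, a main lipid of myelin. For single members the nearest genes were Anks1b for Mag (0.988), Pcdh9 for Mog (0.849), Gltp for Cldn11 (0.992), Dbndd2 for Ermn (0.902), Ndrg1 for Mal (0.989) and Rras2 for Opalin (0.968). Ndrg1 had 20 transcripts, all in the Oligo5 cells. Among the members themselves Mag and Cldn11 were most alike (0.875) and Mal and Opalin least (0.00691). These are descriptions over 6 cells that share depth and preparation.

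Of 20 other membrane proteins of myelin and of the paranode, where the sheath meets the axon, 17 were detected. The cells with the progenitor label had 0 and 1 of them, the Oligo1 cells 14 and 13 and the Oligo5 cells 16 and 15. Of all 492 genes with 10 or more transcripts in the oligodendrocytes, 34.6% had both Oligo1 cells above both Oligo5 cells and 15.2% the reverse. Of the 13 listed genes that met this minimum, 6 had the first order, Tspan2, Nfasc, Jam3, Tmem125 and Plxnb3 among them. Omg and Cd9 had the reverse, and 5 overlapped. Among the listed genes with the most transcripts were the tetraspanin gene Tspan2 (143), Nfasc, a cell adhesion molecule of the paranode and node (98), and Tmem88b (41). Tspan2 had 82, 43, 16 and 2 transcripts and Nfasc 50, 44, 3 and 1 in the order of cells used above.

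How much of each molecule was read differed by gene and by cell. An aligned block in an annotated first exon was present in 136 of the 386 transcripts (35.2%, 30.5% to 40.2%), and 105 held both the start codon and an annotated stop codon. By gene the first exon was reached in 74 of 108 transcripts of Mog (68.5%), 25 of 45 of Ermn (55.6%), 6 of 11 of Opalin (54.5%), 25 of 76 of Mal (32.9%), 5 of 46 of Mag (10.9%) and 1 of 100 of Cldn11 (1%). These shares are pooled over cells that contribute differently to each gene, and the order turned within cells: in Oligo5 cell 2 Mal was at 73.9% and Ermn at 47.1%, in Oligo5 cell 1 Ermn at 58.8% and Mog at 21.1%. Without Oligo5 cell 1 the share of Mal was 75%.

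The share also differed between cells. The first exon was covered in 59 of 129 transcripts of the members in Oligo1 cell 1 (45.7%), 2 of 65 in Oligo1 cell 2 (3.08%), 21 of 111 in Oligo5 cell 1 (18.9%) and 54 of 81 in Oligo5 cell 2 (66.7%). Over all genes matched to the annotation the shares in the same cells were 49.99%, 13.2%, 21.0% and 51.6%. Every oligodendrocyte was read in both runs, but first exon coverage was not split by run within a cell. The first cell of Oligo1 and the second of Oligo5 had the longer molecules and a larger part of their reads from the long run (46.3% and 52.1% against 25.8% and 24.0%). Their median aligned lengths over all matched genes were 1130 and 1177 bp against 653 and 615 bp. For the members the medians were 678 and 1591 bp against 455 and 643 bp. Comparisons of structure between types rest mainly on these cells. Transcripts read in the long run and not in the short run covered the first exon in 59 of 93 cases (63.4%). Those read in the short run and not in the long run did so in 58 of 251 (23.1%). The mix of genes differed: Cldn11 gave 4 of the 93 and 95 of the 251. By gene the 2 shares were 89.7% and 49.0% for Mog, 66.7% and 54.5% for Ermn and 48% and 31.7% for Mal. They were 12.5% and 6.06% for Mag, 25% and 0% for Cldn11 and 0% and 66.7% for Opalin, the first from 8, 4 and 2 transcripts.

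At the other end 294 of the 386 transcripts (76.2%, 71.6% to 80.3%) ended within 20 bp of an annotated end of their gene, against 52.2% of 28906 transcripts over all matched genes. Cldn11 did so in 97 of 100, Mal in 66 of 76, Mog in 90 of 108, Mag in 24 of 46, Ermn in 17 of 45 and Opalin in 0 of 11. By cell the share ran from 66.2% in Oligo1 cell 2 to 82.7% in Oligo5 cell 2. The median over 163 genes with 20 or more transcripts was 67.5%.

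**Figure D2:**
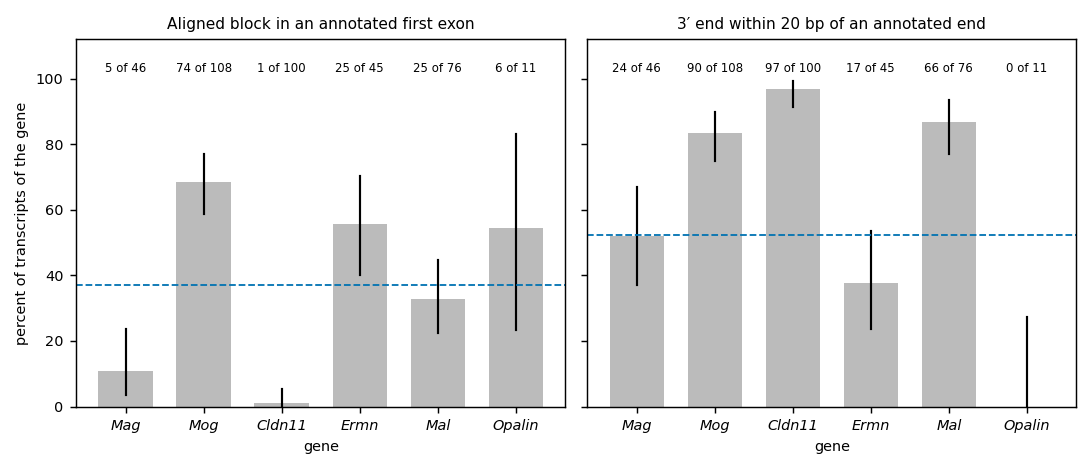
Percent of the transcripts of each gene (y axis) with an aligned block in an annotated first exon (left) and with a 3′ end within 20 bp of an annotated end (right), over the 4 oligodendrocytes; bars are shares, black lines exact 95% binomial intervals (at 0 the limit of 3 counts), numbers above the counts, and the dashed line the share over all matched genes. Mog reached its first exon in 74 of 108 transcripts and Cldn11 in 1 of 100, while Cldn11 ended at the annotated end in 97 of 100 and Opalin in 0 of 11.

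Mag lies at chr7:30899176-30914873 on the minus strand, with its start codon in exon 4 and exons counted from the 5′ end. Its 46 transcripts had 23 combinations of exons in the deposited structure, of which 16 occurred once. The most frequent were exon 13 by itself (10 transcripts), exons 8 to 10 (5, all in Oligo1 cell 2), and exons 6 to 10 and 7 to 10 (4 each). No Mag transcript held the whole coding sequence from start to stop codon, which allows a share of up to 6.52% at 3 counts.

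The exon that separates the forms, exon 12 with 45 bp, could be read in 14 Mag transcripts with aligned blocks on both sides. It was present in 4 and absent in 10 (28.6% present, 8.39% to 58.1%). Oligo1 cell 1 had it in 3 of 8 transcripts, Oligo1 cell 2 in 0 of 5, Oligo5 cell 1 in 1 of 1, and Oligo5 cell 2 had no transcript that spanned it. Exon 12, which marks the short form, was thus seen in an Oligo1 and an Oligo5 cell. Transcripts without it were seen in both Oligo1 cells, and the transcripts were too few to set the types apart. Absence of exon 12 does not by itself show the long form, since not all of these transcripts kept its stop codon, as described below. The 3 transcripts with exon 12 in Oligo1 cell 1 began at the same base, chr7:30901882, and their UMIs were related by 1 substitution or a shift of 1 base. Merged on that ground, a step chosen after these data were seen, 2 of 12 spanning transcripts had the exon (16.7%, 2.09% to 48.4%). Among UMIs with 2 or more reads it was present in 66.7% of 3 transcripts.

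With junctions within 1 bp of the annotation the count was 3 present and 7 absent. The other 3 without exon 12 left out neighbouring exons as well. None of the 15 Mag transcripts that joined exon 13 to an exon upstream had exon 13 unbroken: of its 523 bp they covered 39 to 405, with a median of 202. In 11 of all Mag transcripts the break was a gap of 118 to 410 bp within exon 13. Over 14 jumps of Mag away from annotated exon edges the sequences at both edges had 0 to 6 bases in common, with a median of 2. Of the 7 transcripts with exon 11 joined exactly to exon 13, 2 kept the stop codon of the long form, both in Oligo1 cell 2. Whether the gaps belong to the RNA, the cDNA or the alignment was not tested.

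**Figure D3:**
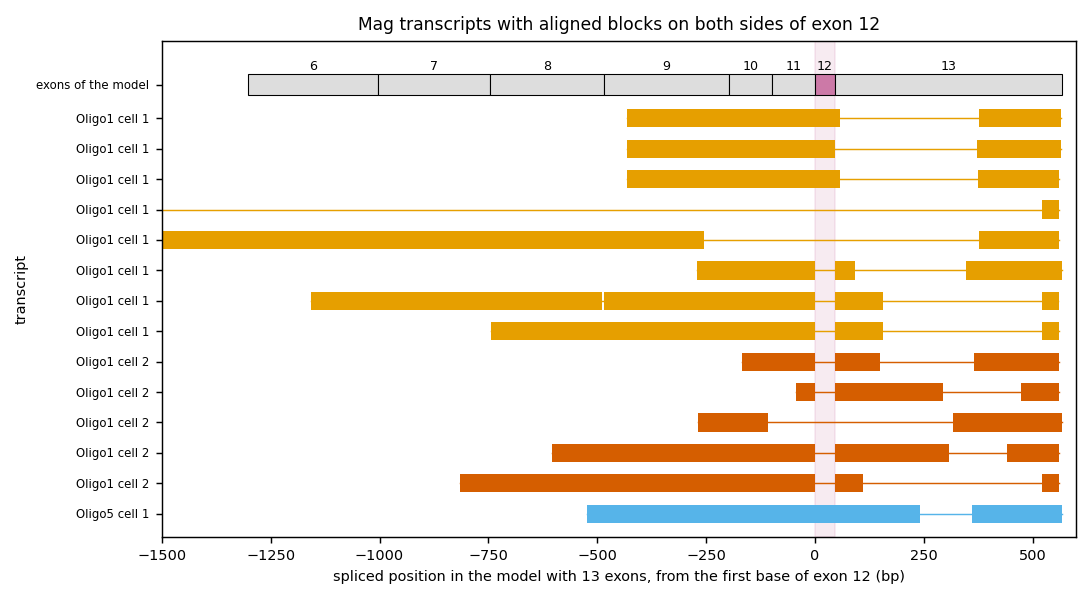
The 14 Mag transcripts (rows, coloured by cell) with aligned blocks on both sides of exon 12, drawn in spliced positions of the gene model from the first base of exon 12 (x axis, bp; minus values are upstream and cut at the left border); boxes are aligned parts of exons, thin lines parts left out, and the top row the numbered exons. The 4 transcripts with exon 12 run through the shaded band, the 10 without it do not, and every one has a break in exon 13 or a jump into it.

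The 5′ end of Mag was read in 5 transcripts, all of Oligo1 cell 1. They began at 4 sites between 72 bp upstream and 8 bp downstream of the start of the model, and 3 of them held the start codon. Exon 2 (chr7:30914269-30914321, 53 bp, before the start codon) was left out by 4 of the 5, in each case with exon 1 joined to exon 3.

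Mag ended at 2 main sites. The first, at chr7:30899176-30899185, is the annotated end, with 24 transcripts (11, 9, 3 and 1 in Oligo1 cells 1 and 2 and Oligo5 cells 1 and 2). An AATAAA hexamer lay 11 bases before it. The second, at chr7:30901066-30901075 in exon 10, before either stop codon, had 18 transcripts (39.1%), with 7, 9, 2 and 0 in the same cells, and 4 of the 5 transcripts that reached the first exon ended there. The 10 bases that follow its most used position are the last 6 of exon 10 and the first 4 of exon 11 and hold 8 A, as the capitals of the stretch above show.

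Mog, at chr17:37010743-37023398 on the minus strand, had the most complete transcripts. All 8 exons of the model were present in 60 of 108 (34 in Oligo1 cell 1, 0 in Oligo1 cell 2, 2 in Oligo5 cell 1 and 24 in Oligo5 cell 2). Both the start and the stop codon were held by 64, some of them without exon 6. Exon 8 stood by itself in 17 transcripts, 9 of them in Oligo5 cell 1. Exons 2 to 5 were present in every transcript that spanned them, from 73 of 73 for exon 2 to 88 of 88 for exon 4, which has 21 bp.

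Departures from the model of Mog were rare. Exon 6 (chr17:37012336-37012452, 117 bp, a multiple of 3) was left out in 4 of 81 transcripts (95.1% present, 87.8% to 98.6%), 2 in Oligo1 cell 1 and 2 in Oligo5 cell 2, each time with exon 5 joined to exon 7 at annotated edges. Exon 7 (21 bp) was left out in 3 of 82, all in Oligo5 cell 2, by a jump from chr17:37012417 or 37012418 within exon 6 to chr17:37010791 within exon 8. That jump passes over 828 or 829 bases of the spliced model, the stop codon included, and 2 of the 3 had the 4 bases acac in common at both edges. Intron 4 was retained in 1 transcript, of Oligo1 cell 2.

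All but 1 of the starts of Mog fell downstream of the annotated start, and that 1, in Oligo5 cell 2, lay 6 bp upstream. Of 74 transcripts that covered exon 1, 57 began between chr17:37023255 and 37023303, most often at 37023288, 110 bp after the start of the model, and all 74 held the start codon. Positions within 5 bp of each other were chained to 1 site, so that this site spans 48 bp. The main end at chr17:37010739-37010749 took 88 of 108 transcripts (42, 0, 16 and 30), and neither hexamer was found in its last 40 bases. A second end at chr17:37011203-37011208 in exon 8, after the stop codon, had 6. In intron 5, which lies before exon 6, 7 transcripts ended (6.48%, 2.65% to 12.9%). Of these, 4 stopped at chr17:37013076-37013079, 3 in Oligo1 cell 1 and 1 in Oligo1 cell 2, and 3 used a block that is no exon of the model and has its 5′ edge at chr17:37013878, 2 in Oligo5 cell 1 and 1 in Oligo5 cell 2. Both Mog transcripts of Oligo1 cell 2 lay off the main end.

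Cldn11, at chr3:31149920-31164324 on the plus strand, was read almost entirely from its last exon. Of 100 transcripts 99 had exon 3 only (42, 35, 18 and 4), and 1, in Oligo1 cell 1, had all 3 exons, with a gap of 609 bp within exon 3. The 3′ end was tight: 95 transcripts ended at chr3:31164317-31164326, with AATAAA 15 bases before the most used position. The 5′ ends of the 99 others fell at 27 sites between 105 and 853 bp before the end of the model, with a median of 419 bp and quartiles of 305 and 468 bp. The medians by cell were 427.5, 414, 418.5 and 445 bp. Exon 3 has 1249 bp, and its stop codon lies at chr3:31163306-31163308, so that all 99 began after the stop codon and held no coding sequence. Of the 100 transcripts 95 were read in the short run only.

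Ermn, at chr2:58045113-58052864 on the minus strand, had either all 3 exons (25 transcripts) or exon 3 only (20). Exon 2 was present in all 25 transcripts that spanned it. The first exon was reached in 7 of 10 transcripts of Oligo1 cell 1, 0 of 1 of Oligo1 cell 2, 10 of 17 of Oligo5 cell 1 and 8 of 17 of Oligo5 cell 2, from starts between 5 bp upstream and 121 bp downstream of the start of the model. The largest of 7 start sites, at chr2:58052859-58052869, took 9.

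The ends of Ermn were spread over 9 sites and differed between cells. The annotated end at chr2:58045113-58045121 had 17 transcripts, 1 in Oligo1 cell 1, 0 in Oligo1 cell 2, 4 in Oligo5 cell 1 and 12 in Oligo5 cell 2. A site at chr2:58048081-58048093, within the coding part of exon 3 and before the stop codon at chr2:58047754-58047756, had 11, 6 in Oligo1 cell 1, 5 in Oligo5 cell 1 and 0 in either other cell. At this site the transcript goes on with a run of AAG triplets, shown above. With 2 more at chr2:58048068-58048072, 13 of 45 transcripts ended before the stop codon (28.9%, 16.4% to 44.3%), and these were 13 of the 25 that reached the first exon. Sites at chr2:58046956-58046962 and chr2:58046536-58046541, after the stop codon, had 5 transcripts each. In transcripts read in the long run only the annotated end was reached in 8 of 15, in those of the short run only in 6 of 22, and the share over the cells without Oligo5 cell 2 fell from 37.8% to 17.9%.

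Mal, at chr2:127633226-127656695 on the minus strand, had exon 4 only in 36 transcripts, all 4 exons in 25, exons 2 to 4 in 13 and exons 3 and 4 in 2. Every transcript that spanned an inner exon included it. Oligo5 cell 1 had 30 of the 36 with exon 4 only and all 13 with exons 2 to 4, Oligo5 cell 2 had 17 of the 25 with all exons, and the single transcript of Oligo1 cell 1 was complete as well. All transcripts that held both codons, 22, came from these 25.

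The starts of Mal lay far inside the annotated first exon. Of 25 transcripts with exon 1, 16 began at chr2:127656210-127656219, 15 of them in Oligo5 cell 2, and the most used position was 477 bp downstream of the start of the model. No start was closer to it than 460 bp. The ends fell in 2 clusters, both annotated. The distal end at chr2:127633226-127633230 had 45 transcripts, 34 in Oligo5 cell 1 and 11 in Oligo5 cell 2, with ATTAAA 14 bases before it. The proximal end, annotated for a shorter transcript, had 11 at chr2:127634874-127634877 (1, 0, 7 and 3) and 9 at chr2:127634889-127634892 (0, 0, 5 and 4). Neither hexamer was found in the 40 bases before these, and 9 and 7 of the next 10 bases were A. A further 6 ended at chr2:127633338-127633345.

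Opalin, at chr19:41061710-41077113 on the minus strand, was read in 11 transcripts of the Oligo1 cells. All 5 of Oligo1 cell 1 and 1 of 6 of Oligo1 cell 2 had all 6 exons and the whole coding sequence, 3 had exons 4 to 6 and 2 exon 6 only. The 6 complete ones began within 4 bases, at chr19:41077069-41077072, 41 bp downstream of the start of the model. All 11 ended at chr19:41063420-41063430, 383 bp after the stop codon and 947 bp before the end of the model, with AATAAA 15 bases before the most used position and no A in the next 10 bases. No annotated end lay within 20 bp of this site.

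**Figure D4:**
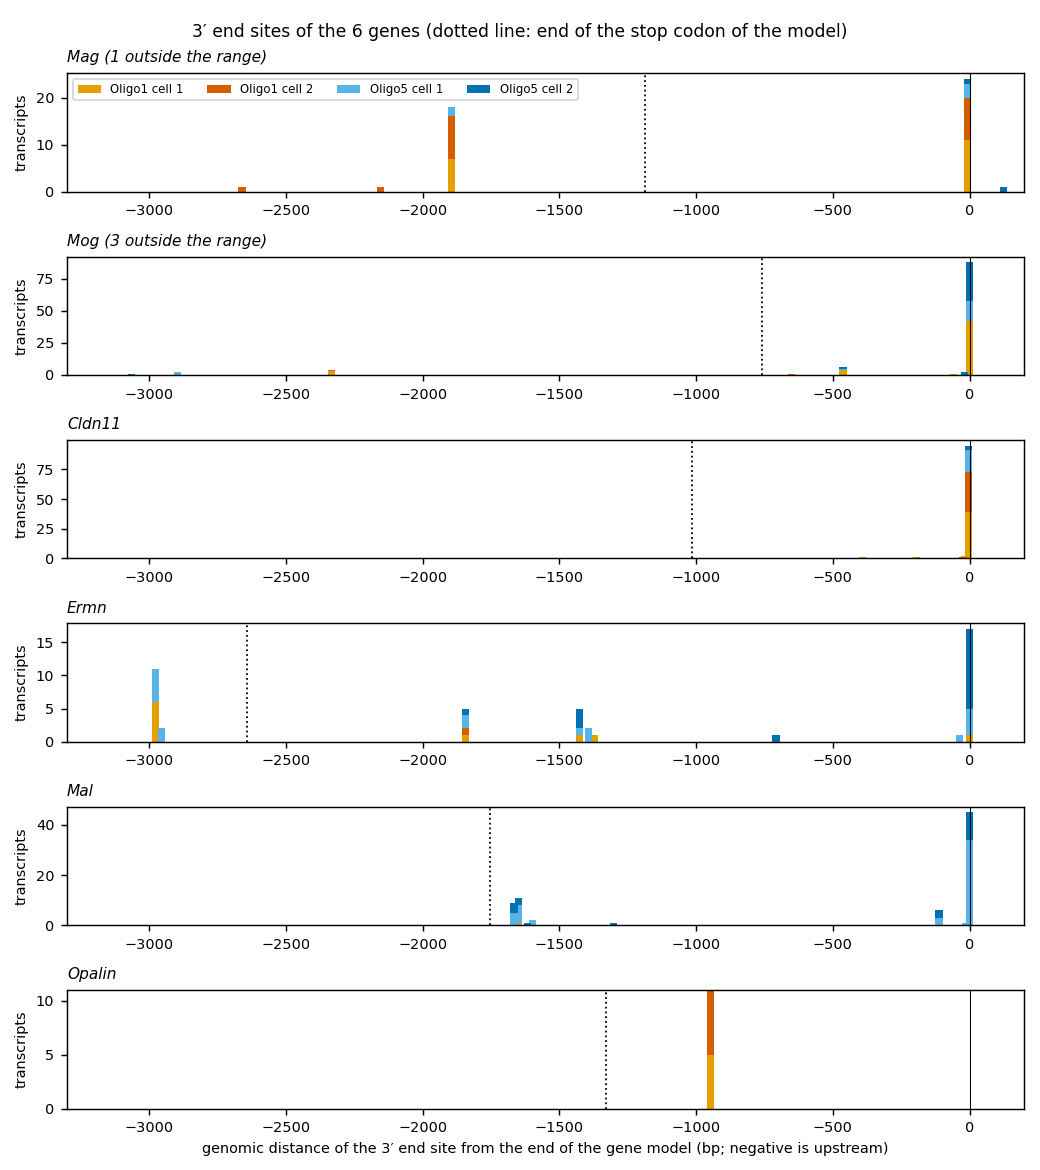
Number of transcripts (y axis) at each 3′ end site of the 6 genes, by genomic distance from the end of the gene model (x axis, bp, minus values upstream), stacked by cell; the dotted line marks the end of the stop codon of the model, which for Mag is that of the short form, and 1 transcript of Mag and 3 of Mog lie outside the range. Ermn with 11 and Mag with 18 transcripts have an end before the stop codon, Mal has ends near both borders of its last exon, and Opalin has 1 end only, 947 bp before the end of the model.

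The base composition after ends inside the models was set beside that of all genes. Of 104 ends of the members that lay 10 or more bases before the end of the spliced model, 50 (48.1%) were followed by 7 or more A in 10 bases. Over all matched genes this was 33.2% of 16232 ends, and 1.48% of all windows of 10 bases in the same models. Mag had 16 of 19 such ends, Mal 23 of 31 and Ermn 10 of 28, whereas Mog had 0 of 10 and Opalin 0 of 11. A polyadenylation hexamer, searched on the strand of the transcript in the last 40 bases, preceded 66.3% of 25415 ends over all genes and was present in 3.28% of windows of that length. Whether the primer for cDNA synthesis had bound within the A-rich stretches was not tested.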

How the data were processed

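The cDNA of 6 single cells, made with STRT/C1, had been amplified and sequenced on the PacBio platform. The authors deposited 1 table of transcripts, whose values are raw counts of the reads that were joined by cell, gene and UMI, without normalization, beside the positions of its aligned blocks on mm10. Per the study's methods, concatemers were split, a barcode on either side and a poly-A tail were required, uniquely aligned molecules were kept and annotated by RefSeq; the submitters' processing notes name GSNAP and mm10. No correction of UMI errors is stated, and UMIs have 6 bases. The table held 36659 transcripts and 73594 reads, 2338 to 11483 transcripts per cell. Movies were split into the short run (5) and the long run (2) by their names.

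Cells were matched to samples by barcode. Transcripts were counted per gene and cell as percent of the transcripts of the cell, with exact binomial (Clopper-Pearson) 95% intervals and, at 0, a limit of 3 counts. No p-value was computed, since each cell type is 1 sample. Of 6357 names 6332 were matched to GENCODE M21 (GRCm38), and exons were numbered from the 5′ end of the gene model, the transcript with a RefSeq link that has most exons. Deposited block starts, which count from 0, were given from 1. Starts were read in transcripts that cover a first exon, and positions within 5 bp were chained. Reads were not assigned again, and no genome was used here, so sequence came from spliced transcripts. Genes named were the 6 members, the 5 genes with 20 or more transcripts whose profile over cells was most like their sum, the nearest such gene of each member, the 4 most abundant of a list of 20 other myelin membrane proteins, and Mobp and Cnp as a scale; genes of these that are not in the text are not reported here, and further genes of that list are named after their values were seen. The members, lists and alternatives were chosen with earlier results of these data known. Steps were tested on simulated data. Python 3.11.15 was used with pandas 2.3.3, numpy 2.4.6, scipy 1.17.1 and matplotlib 3.10.9.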

Additional observations from a re-analysis of the deposited data

How the results depend on the processing

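The values rest on few molecules of 2 cells per type, and most were read once. The mean summed share of the 6 genes was 1.10% in the Oligo1 cells and 1.59% in the Oligo5 cells. The Oligo1 mean was 0.914% with UMIs of 2 or more reads, 1.15% with UMIs 1 substitution apart merged, 0.981% with reads counted, 1.31% in the short run and 0.684% in the long run. The difference between the means of Oligo5 and Oligo1, 0.494 percentage points, was 0.154 in the short run and 1.06 in the long run, where the Oligo5 means were 1.46% and 1.75%. Members with both Oligo1 cells above both Oligo5 cells numbered 3 of 6 (34.6% of all genes), 0 of the 5 that met the minimum with UMIs of 2 or more reads (38.6%) and 1 of 4 in the long run (35.9%). Inclusion of Mag exon 12 was 28.6%, and 66.7% of 3 transcripts with 2 or more reads and 0% of the 1 transcript that covered the first exon. First exon coverage was 35.2%, 26.3% in the short run, 57.8% in the long run and 26.9% to 41.8% without 1 cell. Cldn11 made up 96 of the 293 transcripts of the short run and 5 of the 135 of the long run. Ends at the annotated end were 76.2%, and 62.4% within 5 bp. Start sites numbered 27, 76 with every position distinct and 13 within 20 bp; end sites numbered 40, 106 with every position distinct and 25 with UMIs of 2 or more reads. The difference of Mog between the means of Oligo5 and Oligo1, 0.20 percentage points, turned to -0.0493 with UMIs of 2 or more reads, and ran from -0.00993 (without Oligo1 cell 2) to 0.410 (without Oligo1 cell 1) when 1 cell was left out. Ermn and Mal kept both Oligo5 cells above both Oligo1 cells under 7 settings with all 4 cells. In 1 of these, which added the transcripts of overlapping genes, neither gene could change. Leaving out 1 cell cannot break such an order, so the 4 settings that did so say nothing about it. The causes of these changes were not tested. Merging of UMIs with a shift of 1 base was chosen after seeing the data. No paired analysis was possible because the results come from no test and the numbers of the cells do not pair them.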

Other observations

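Genes of immature oligodendrocytes that are not among the 6 were set beside them. Of 10 such markers 6 and 4 were detected in the Oligo1 cells, with 49 and 52 transcripts (0.427% and 0.861%), and 2 in each Oligo5 cell, with 6 and 4 transcripts (0.102% and 0.0644%). The cells with the progenitor label had 2 and 1 of them, with 2 transcripts each. Both Oligo1 cells were above both Oligo5 cells for 34.6% of all 492 genes with 10 or more transcripts in the oligodendrocytes. Rras2, the gene nearest to Opalin in profile, is on that list of markers. It supplied 36 of the marker transcripts of the Oligo1 cells and none in the Oligo5 cells. These are values of single cells and were not tested.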
